A study of Mus musculus with 16 samples.

Results

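The ribosomal protein genes of the mouse autosomes were examined in the chromatin of haploid spermatids that lack the histone variant H2A.B and of wild-type spermatids. The members are the protein-coding genes of the GENCODE vM21 annotation (build mm10) on the 19 autosomes whose symbol is Rpl or Rps, a number, and at most one further letter a or l. The rule found 72 genes, 43 with an Rpl name (large subunit) and 29 with an Rps name (small subunit), of 20807 autosomal protein-coding genes. Fragments were counted around each gene start, and the other 20735 genes serve as comparison.

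KO libraries came from hemizygous ΔH2A.B/Y males, in which CRISPR/Cas9 editing had disrupted all 3 H2A.B genes of the X chromosome (H2afb1, H2afb2, and H2afb3), and WT libraries came from their +/Y siblings. The animals were 2-month-old mice of 1 triple KO strain backcrossed to C57BL/6J, in 2 sibling pairs, and replicate numbers 1 and 2 were read as the pairs. Live haploid cells were sorted by Hoechst and propidium iodide staining, so each library pools the haploid stages of that gate. Each animal was profiled by AutoCUT&RUN, in which an antibody-tethered nuclease releases DNA fragments, for H3K4me3, H3K27me3, and H3K9me3 and with a nonspecific IgG, which gave 16 libraries.

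Ribosomal proteins form the protein part of the large and small ribosome subunits, and nearly every cell makes them in large and balanced amounts. Their genes are textbook housekeeping genes with short promoters rich in CpG dinucleotides, and many start transcription within a run of pyrimidines (C and T), the terminal oligopyrimidine element of the mRNA. H3K4me3 marks nucleosomes around active and poised promoters, H3K27me3 is deposited by Polycomb at silenced developmental genes, and H3K9me3 marks constitutive heterochromatin. Several ribosomal protein genes have a paralog with a restricted pattern of use. Rpl3l is known from heart and skeletal muscle, and Rpl10l and Rpl39l from the male germ line.

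After identical coordinates were counted once, the libraries held between 159611 fragments (IgG) and 6746382 fragments (H3K9me3), and the H3K27me3 library of WT replicate 2 was the shallowest of its mark, with 200457 fragments against 3806026 in KO replicate 1. Spermatid markers (Prm1, Tnp1, Acr, and others, 10 in all) carried H3K4me3 at a median of 17.0 fragments per 1000000 distinct fragments (FPM), and the spermatocyte markers at 15.7. The median was 0.246 for the 6 Sertoli cell markers, 0.131 for the 6 Leydig cell markers, and 0.147 for the 5 blood and macrophage markers, and 1.20 for the 7 spermatogonial markers. In KO libraries 1 fragment ended between both guide cuts of the H2A.B genes, and in WT libraries 8 did, too few to check the genotype labels.

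The promoter sequences are shown first, because the position of the start decides where fragments were counted. The RefSeq promoter table (build GRCm38.p6) held an entry for 53 of the 72 members. Among those without one were Rpl3, Rpl7, Rpl8, Rpl17, Rpl21, Rpl23a, Rpl29, Rpl30, Rpl32, Rpl36, Rps14, Rps20, Rps27a, and Rps29. The 30 bases around the RefSeq start are printed for the 4 members with the longest pyrimidine run, for the germ line genes Rpl10l and Rpl39l, and for Rpl3l. Base 16 of each stretch is the annotated start, and capitals mark the longest run of C and T.
Rpl7a: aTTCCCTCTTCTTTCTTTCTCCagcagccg
Rpl27a: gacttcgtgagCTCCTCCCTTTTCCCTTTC
Rpl35: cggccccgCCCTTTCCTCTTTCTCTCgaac
Rpl15: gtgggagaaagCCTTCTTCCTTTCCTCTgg
Rpl39l: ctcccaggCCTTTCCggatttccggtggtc
Rpl10l: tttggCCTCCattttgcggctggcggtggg
Rpl3l: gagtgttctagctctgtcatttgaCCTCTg

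Rpl7a lies on the + strand (chr2:26910792-26910821), Rpl27a on the + strand (chr7:109519180-109519209), Rpl35 on the - strand (chr2:39005117-39005146), and Rpl15 on the - strand (chr14:18270972-18271001). Rpl39l lies on the + strand (chr16:10170213-10170242), Rpl10l on the - strand (chr12:66284387-66284416), and Rpl3l on the + strand (chr17:24727811-24727840). The run was 21 bases long in Rpl7a, 19 in Rpl27a, 18 in Rpl35, and 17 in Rpl15, against 7 in Rpl39l and 5 each in Rpl10l and Rpl3l. A run of 8 or more bases anywhere in the 30 bases was present in 22 of the 53 members (41.5%) and in 12.1% of the 31396 autosomal promoters of the table. The run need not include the start (base 16), and in Rpl13a and Rpl4, for example, it did not. The 41.5% is therefore not the share of members that start within such a run. The first transcribed base was a C in 18 members (33.96%) and in 16.4% of all promoters.

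In the 300 bases from 250 before to 50 after the RefSeq start, the 53 members held a median of 21 CpG dinucleotides, and all promoters of the table held a median of 7. Rpl3l had 2. On either strand, the letters CCGGAAG, a core that ETS factors recognise, were found in 21 members (39.6%) and in 9.004% of all promoters. The letters GGGCGG, a core of the Sp1 site, were found in 29 members (54.7%) and in 36.0%, and AAGATGGC, as in YY1 sites, in 5 members (9.43%) and in 2.75%. The letters TATAAA occurred in 3 members (5.66%) and in 13.6% of all promoters, and CCAAT in 15 members (28.3%) and in 37.3%. None of these words contains another, and a match describes the sequence only.

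The first comparison asked how much H3K4me3 these promoters carry. Distinct fragments with their midpoint within 1 kb of the GENCODE gene start were counted and scaled to FPM. Per promoter, the members carried 18.7 FPM in KO replicate 1, 16.2 in KO replicate 2, 14.02 in WT replicate 1, and 14.9 in WT replicate 2. The other autosomal promoters carried 9.47, 8.42, 7.53, and 7.79 in the same libraries. The members were therefore 1.97, 1.93, 1.86, and 1.91 times as high as the rest, and they were above it in 4 of 4 libraries. The median member, at 16.3 FPM over the 4 libraries, stood above 78.8% of the other promoters. The genes of the large subunit had a median of 15.8 and those of the small subunit a median of 17.6, within quartiles of 12.1 to 20.3 and 11.9 to 22.3.

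Rpl36, of the large subunit, was among the highest members, with 30.4 and 33.9 FPM in KO and 19.1 and 29.8 in WT. Both KO values lay above both WT values, the nearest of them by a narrow margin. Rpl19 (mean 24.8) of the large subunit and Rps2 (27.3), Rps3 (25.4), and Rps19 (24.6) of the small subunit were also high, the last known for its mutation in Diamond-Blackfan anemia. The SD over the 4 libraries was 6.38 for Rpl36, 9.14 for Rps2, and 10.1 for Rps3. The order among these genes was not resolved, since their means differ by less than these SDs.

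Among the lowest members were Rps14 (mean 2.54), Rpl3 (0.954), Rpl3l (0.677), Rpl17 (0.336), and Rps10 (0.188). The start annotated by GENCODE is the outermost end of a gene's transcript models, and for 8 members it lies over 1 kb from the start of the curated RefSeq transcript. The distance is 27498 bp for Rps14, 8462 bp for Rpl3, 3553 bp for Rps24, 2614 bp for Rpl18, 1947 bp for Rps2, 1919 bp for Rpl17, 1425 bp for Rps10, and 1306 bp for Rpl22. Rps14, Rpl3, Rpl17, and Rps10 are thus both among the lowest members and among these 8. At the RefSeq start, Rps14, a protein of the small subunit, had 27.5 and 30.9 FPM in KO and 22.95 and 25.2 in WT, with a mean of 26.6. For Rpl3, one of the first proteins to join the large subunit, the values at the RefSeq start were 16.3 and 15.9 in KO and 20.4 and 17.9 in WT. Rps10 and Rpl17 were at means of 5.70 and 6.58 there. Rpl22 went the other way, from 10.4 to 1.90. Over all members, the median at the RefSeq start was 17.0 and the members were 1.92 to 2.04 times as high as the other promoters.

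**Figure D1:**
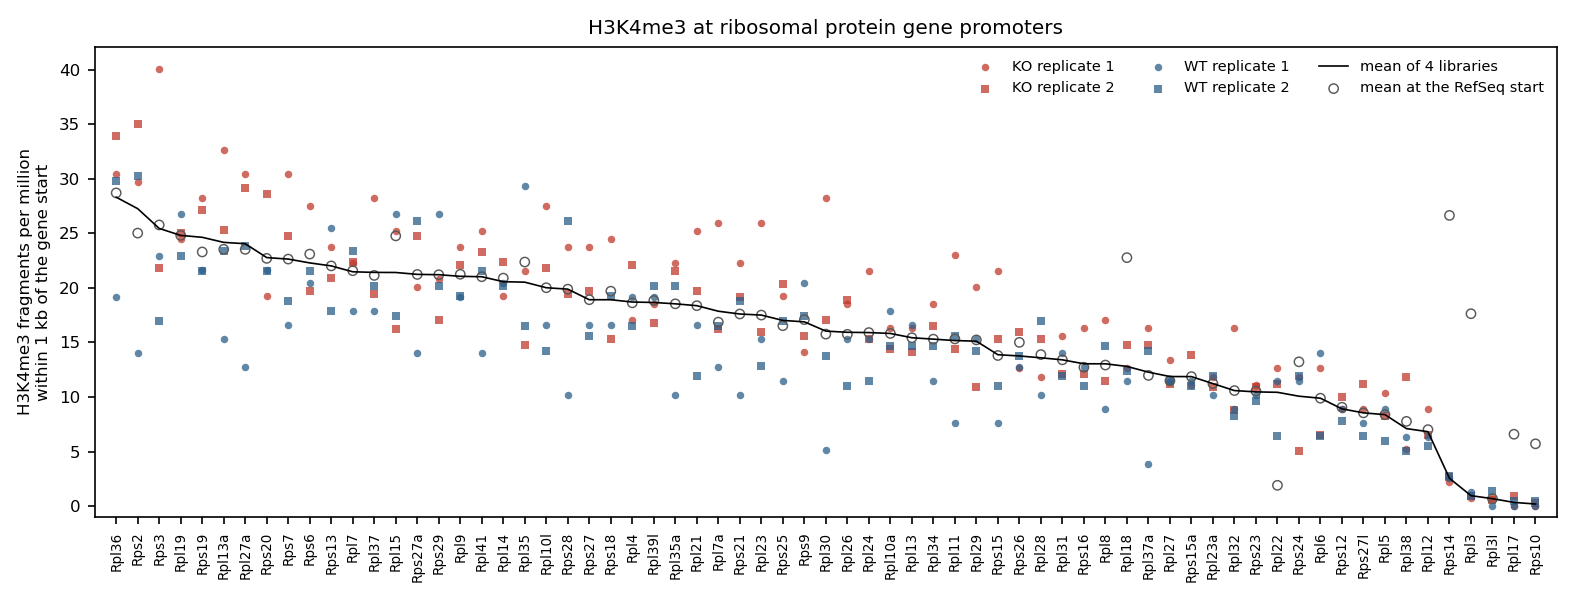
H3K4me3 FPM within 1 kb of the GENCODE start of 67 of the 72 genes, ordered by their mean. Points are libraries (circles replicate 1, squares replicate 2), the line is the mean of 4, and open circles are the mean at the RefSeq start. Most members lie between 7.23 and 24.2 (10th and 90th percentiles of the means of all 72), and the open circles of Rps14, Rpl3, Rpl17, Rps10, and Rpl18 lie far above the line.

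Rpl3l stayed low at both starts. It had 1 and 2 H3K4me3 fragments in the KO libraries and 0 and 3 in the WT libraries, or 0.677 FPM, while its housekeeping counterpart Rpl3 reached 17.6 at its RefSeq start. The germ line paralog Rpl10l was among the marked promoters, with 27.4 and 21.8 FPM in KO and 16.6 and 14.2 in WT. Rpl39l had 18.6 and 16.8 in KO and 19.1 and 20.2 in WT. Both paralogs thus lay above the median of all members, and the KO values lay above the WT values at Rpl10l and below them at Rpl39l. Rps27a, whose product carries ubiquitin at its end, had a mean of 21.2, Rps27 18.9, and its paralog Rps27l 8.54. The KO values of Rps27l (8.90 and 11.2) lay above its WT values (7.65 and 6.42).

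Reads of 25 bases were aligned, and ribosomal protein genes have many processed pseudogenes, so unequal mapping can bear on these levels. Of the 25-base words in the members' windows, a median of 89.8% occurred once in the genome, with 62.7% in Rpl37a, 65.9% in Rpl10l, and 66.4% in Rpl17 as the lowest shares. The share was 92.4% in Rpl3l. In Rps2 it was 95.1% at the GENCODE start and 62.7% at the RefSeq start. Another protein-coding gene starts within 1 kb of 15 members, whose median H3K4me3 was 18.9 against 15.4 in the other 57. Fragments at such shared promoters could not be assigned to one gene.

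The comparison with the other antibodies asked whether the signal at these promoters is particular to H3K4me3. Per promoter, H3K27me3 was at 0.591 and 1.17 FPM in KO and at 0.610 and 3.603 in WT, and the other promoters were at 7.84 and 6.23 in KO and 7.33 and 5.92 in WT. H3K9me3 was at 0.0947 and 0.207 in KO and at 0.111 and 0.141 in WT, against 3.25 to 4.42 in the other promoters. IgG was at 1.49 and 1.33 in KO and at 1.46 and 2.09 in WT, against 2.66 to 5.69. By these means per promoter, the members were below the other promoters in all 4 libraries of each of these 3 antibodies. The medians over promoters lay closer together than these means. The median promoter had 0.351 H3K27me3 FPM in both sets, and 0.0987 (members) and 0.140 (others) H3K9me3 FPM. For IgG the median promoter was at 0 in both sets. No IgG fragment was counted at 56.9% of members and 63.4% of others, and the upper quartiles were 1.54 and 1.26 FPM. The lower IgG mean of the members was thus not a trait of the typical promoter. In KO replicate 1, a single promoter held 4727 of the 31917 IgG fragments of the others.

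One member, Rps29, held a large part of the IgG and H3K27me3 fragments. It encodes a small-subunit protein and had 11 and 10 of the 29 and 19 IgG fragments of all members in KO, and 7 and 19 of the 17 and 24 in WT. Of the H3K27me3 fragments it had 3 of 162 and 25 of 60 in KO, and 14 of 127 and 42 of 52 in WT. Nearly all of them had their midpoint 100 to 400 bp upstream of the start: 46 of the 47 IgG fragments did, and 82 of the 84 H3K27me3 fragments. With H3K4me3, 51 of 151 fragments did. Without Rps29 the members' H3K27me3 was at 0.588 and 0.693 in KO and 0.550 and 0.703 in WT, and IgG at 0.937 and 0.638 in KO and 0.868 and 0.441 in WT. The high H3K27me3 value of WT replicate 2 was therefore absent once this promoter was left out.

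**Figure D2:**
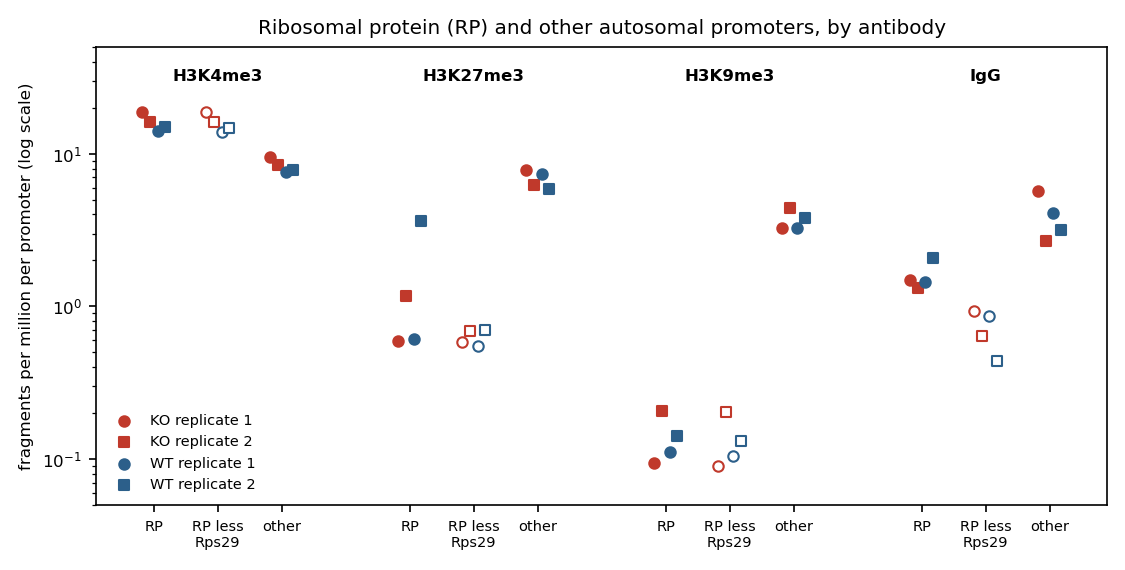
FPM per promoter (log axis) for the ribosomal protein promoters (RP), the same without Rps29, and the other autosomal promoters, for each antibody and library. In these means the members lie above the other promoters for H3K4me3 and below them for H3K27me3, H3K9me3, and IgG. Leaving out Rps29 brings the H3K27me3 value of WT replicate 2 from 3.603 to 0.703.

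In the same animal, H3K4me3 at the members was 12.53 and 12.2 times IgG in KO and 9.64 and 7.12 times in WT. Without Rps29 these ratios were 19.9, 25.4, 15.9, and 33.5. At the other promoters they were 1.66 and 3.16 in KO and 1.85 and 2.46 in WT. No promoter with many IgG fragments was left out of these, so they are unlike the ratios without Rps29. Over all 72 members with no filter, H3K4me3 FPM lay above IgG FPM in 4 of 4 animals at 67, in 3 at 1, and in 2 or fewer at Rpl17, Rps10, Rps14, and Rps29. The same count over the other promoters is not given, so it is not read as particular to the members. Where IgG is at 0, any H3K4me3 fragment in each library is enough to be counted. With at least 10 fragments over both antibodies 68 members were tested, and 67 of them had under 10 IgG fragments, so they passed through H3K4me3 alone. The 65 that limma-voom called higher (adjusted p under 0.05), beside 76.3% of all 12053 promoters tested, are therefore largely set by that filter and carry no weight of their own. Scaling by the median ratio of promoters left 30. IgG was at 0 in all 4 libraries for 41 members, and 30 had 1 to 3 fragments in all. Set against a limit of 3 fragments over the 4 IgG libraries (3.79 FPM), the median member of those 41 was at least 4.28-fold higher in H3K4me3. Among the 3 that were not called higher were Rps29, whose H3K4me3 was lower than IgG, by 1.49 on the log2 scale (SE 0.38, adjusted p = 0.00788), as at 2.05% of all promoters, and Rps14 at its distant GENCODE start.

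H3K4me3 FPM lay above H3K27me3 FPM in 4 of 4 animals at 67 of all 72 members, and in 2 or fewer at Rpl17, Rpl3, Rpl3l, Rps10, and Rps29. Here too the same count over the other promoters is not given. Of the 70 members with enough fragments for the test, 64 had under 10 H3K27me3 fragments, so the 67 called higher by limma-voom, beside 57.7% of 15810 promoters, are likewise largely set by the filter. The other 3 tested were Rpl3, Rpl3l, and Rps14. At the GENCODE start of Rpl3, which lies beside the start of Syngr1, a synaptic vesicle gene, H3K27me3 counted 57 and 5 fragments in KO and 46 and 0 in WT, and H3K4me3 counted 1 and 3 in KO and 1 and 2 in WT. H3K4me3 was lower there by 3.23 on the log2 scale (SE 0.83, limma-voom adjusted p = 1.49e-04), as it was at 30.3% of all promoters tested. With 7 H3K4me3 fragments in all, Rpl3 passed the filter there through H3K27me3 alone, so this call too is largely set by the filter. At the RefSeq start of Rpl3, 5 H3K27me3 fragments were counted over the 4 libraries.

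H3K27me3 was found at few members. Of the 72, 6 (8.33%) had at least 10 fragments over the 4 libraries, against 31.3% of the other promoters. None was counted at 14 (19.4%), close to the 18.4% of the others. Next to Rps29 and Rpl3, Rpl13 was the highest, with 8 and 2 fragments in KO and 12 and 2 in WT. In fragments Rps6 (15), Rpl38 (13), and Rpl23a (11) came next. By mean FPM Rpl27 came next with 4 fragments in all, since 1 of them fell in the shallow library of WT replicate 2. These ranks hold for the GENCODE start, where Rps2 had 2 fragments in all. At its RefSeq start, 1947 bp away, Rps2 had 23 and 3 fragments in KO and 23 and 2 in WT. Its mean there was 7.05 FPM, above the 4.76 of Rpl13. Among the 6, Rpl3 was called above IgG, beside 65.8% of 6662 promoters. It had 0 IgG fragments and passed the filter through H3K27me3 alone, so the call carries no weight of its own. H3K9me3 was sparser still. Rps29 had 12 fragments in the 4 libraries, and Rps9 had 10. Rps15a was also among the highest by mean FPM, with 7 fragments. By mean IgG FPM, Rps29 was followed by Rpl35a with 3 fragments, and Rps14 was also among the highest with 2.

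The next question was whether the loss of H2A.B changed the level of these marks. The members' H3K4me3 was 17.4 ± 1.72 FPM per promoter in KO and 14.4 ± 0.597 in WT (SD, n = 2 each). On the log2 scale KO was higher by 0.27, with 0.41 in pair 1 and 0.13 in pair 2, and the SD between replicates was 0.11. The other promoters were higher by 0.22, with 0.33 and 0.11 in the pairs. In bulk libraries fewer marked cells and less mark per cell cannot be told apart, and scaling to the library total makes each value relative to the rest of the library.

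No member passed the test for H3K4me3 between KO and WT. Of the 68 members tested with limma-voom 0 were called, and of all 11949 promoters 0 were called (0%), with 6 members and 413 promoters (3.46%) at an unadjusted p under 0.05. The smallest adjusted p of a member was 0.998, and limma-trend also called 0 members. The median change of the members was 0.22 on the log2 scale and that of all promoters 0.17, and 52 members had a positive and 16 a negative change. With median-ratio scaling the medians were 0.04 and -0.02, and 36 members were positive and 32 negative. Members with the same sign in both pairs numbered 32 (higher in KO) and 9 (lower), and 27 had opposite signs. The shares of all promoters with these signs are not given, so the counts of signs are not read as particular to the members.

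Rpl30, of the large subunit, showed the largest positive change that both pairs shared. It had 28.2 and 17.1 FPM in KO and 5.10 and 13.7 in WT, a log2 change of 1.03 (SE 0.42, limma-voom adjusted p = 0.998). The KO values lay above the WT values, and the lowest library held 4 fragments. Rps15 had 21.5 and 15.3 in KO and 7.65 and 11.0 in WT (0.81, SE 0.41), and Rpl21 had 25.2 and 19.7 in KO and 16.6 and 11.9 in WT (0.75, SE 0.37). In both genes the groups did not overlap, but neither passed the test. Rps3 (0.72, SE 0.35) followed, and its values overlapped, with 40.1 and 21.8 in KO and 22.9 and 17.0 in WT. The largest negative changes that both pairs shared were those of Rps9 (-0.29, SE 0.35), Rps29 (-0.26, SE 0.35), Rpl35 (-0.22, SE 0.35), and Rpl39l (-0.19, SE 0.35). Each of these shared negative changes was smaller than its standard error, and each of the 8 genes had an adjusted p of 0.998. Larger negative changes had opposite signs in the pairs, as at Rps24 (-0.86, SE 0.42, limma-voom adjusted p = 0.998). Its pairs gave 0.016 and -1.24 at the GENCODE start. At the RefSeq start of Rps24, 3553 bp away, the values were 17.1 and 13.8 FPM in KO and 6.37 and 15.6 in WT. The pairs differed in sign there too, with KO higher in pair 1. Single libraries moved the values of the 8 genes. Rps3 was at 0.20 without KO replicate 1, Rpl21 at 0.43 without WT replicate 2, and Rpl30 at 0.57 without WT replicate 1, at 0.65 without KO replicate 1, and at 2.02 without WT replicate 2.

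For H3K27me3 0 of 6 members were called between KO and WT (limma-voom), as were 0 of 6492 promoters (0%), with 0 members and 151 promoters at an unadjusted p under 0.05. With the sibling pair as a block, Rps29 alone among the members was called, lower in KO by 2.53 on the log2 scale (SE 0.51, limma-voom adjusted p = 0.00523). The share of all promoters that this blocked fit called is not given, so the call is not read as particular to Rps29. Its H3K27me3 counts were 3 and 25 fragments in KO and 14 and 42 in WT, at the upstream position where IgG fragments were also found, and the part of that background in the call was not tested. For H3K9me3 0 of 3 members and 0 of 3205 promoters were called (0%), with 0 members and 50 promoters at an unadjusted p under 0.05. For IgG, Rps29 was the 1 member tested and was not called, nor was any of 57 promoters (0%), with 0 at an unadjusted p under 0.05. With limma-trend 0 members were called for any of these 3 antibodies. Few fragments limit these comparisons.

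Fragment length was compared next, because the nuclease releases whole nucleosomes as large fragments (150 bp or more) and partly unwrapped nucleosomes or other bound proteins as small ones (120 bp or less). The question was whether the ratio of small to large fragments at these promoters differed between KO and WT. In H3K4me3 libraries the members had 741 small and 992 large fragments in KO replicate 1, 1487 and 2221 in KO replicate 2, 235 and 517 in WT replicate 1, and 563 and 1626 in WT replicate 2. Small fragments made up 40.9% (95% Wilson interval 38.7 to 43.2) and 37.5% (36.0 to 39.0) in KO, and 29.7% (26.6 to 32.9) and 24.1% (22.4 to 25.9) in WT. Intervals cover counting error only. Both KO values lay above both WT values.

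As a log2 ratio, the members were at -0.42 and -0.58 in KO and at -1.14 and -1.53 in WT, a difference of 0.83 against an SD between replicates of 0.21. The pairs gave 0.72 and 0.95. The other promoters were at -0.58 and -0.68 in KO and at -1.24 and -1.62 in WT, a difference of 0.80. The ratio was higher at the members than at the others in 4 of 4 libraries, by 0.16 and 0.10 in KO and by 0.10 and 0.09 in WT. The excess of KO over WT at the members thus exceeded that at the other promoters by 0.04, close to the SD of 0.03. With 2 libraries against 2 an exact permutation test could not reach 0.05, and none was run on the pooled values.

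The shift ran through almost all members. Of the 67 with at least 10 small and 10 large fragments, 66 had a higher ratio in KO than in WT when the libraries of a genotype were added up, and Rpl10l was the exception, at 41 small to 64 large in KO and 18 to 25 in WT. In 47 both pairs were higher in KO, in 0 both were lower, and in the rest the pairs differed in sign or were equal. The shares of the other promoters that moved in these ways are not given. Their pooled ratio rose by 0.80, near the 0.83 of the members, so these counts are not read as particular to the members. After each library was centred on its median promoter, 0 of the 67 members were called by limma, beside 0.0107% (1) of 9361 promoters, with 2 members and 423 promoters (4.52%) at an unadjusted p under 0.05. On simulated data this test missed most of the promoters that were changed, so the absence of calls does not show that the members moved alike. The median centred change was -0.11 at the members and -0.05 at all promoters tested. By this median the members rose slightly less than the rest, while their pooled ratio rose slightly more.

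The largest difference in ratio was at Rpl41, which encodes the smallest protein of the large subunit. In KO it had 46 small against 60 large fragments, and in WT 7 against 46. Rps15a had 25 and 35 in KO and 4 and 27 in WT, and Rpl31 had 26 and 32 in KO and 5 and 29 in WT. Over the 4 libraries together and among these 67 members, the highest log2 ratios belonged to Rps9 (-0.02), Rpl23 (-0.07), Rpl4 (-0.08), and Rpl24 (-0.10), where small and large fragments were about equal in number. The lowest of the 67 belonged to Rpl28 (-1.97), Rpl8 (-1.85), Rps12 (-1.53), and Rps24 (-1.53). Rpl28 had 21 small and 84 large fragments, and Rps9 had 58 and 59. These sums mix genotypes in shares that differ by gene. Rps24 was at -0.71 in KO and -2.61 in WT, and Rpl28 at -1.65 and -2.49. These ratios are taken around the GENCODE start, which for Rps24 lies 3553 bp from the RefSeq start.

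**Figure D3:**
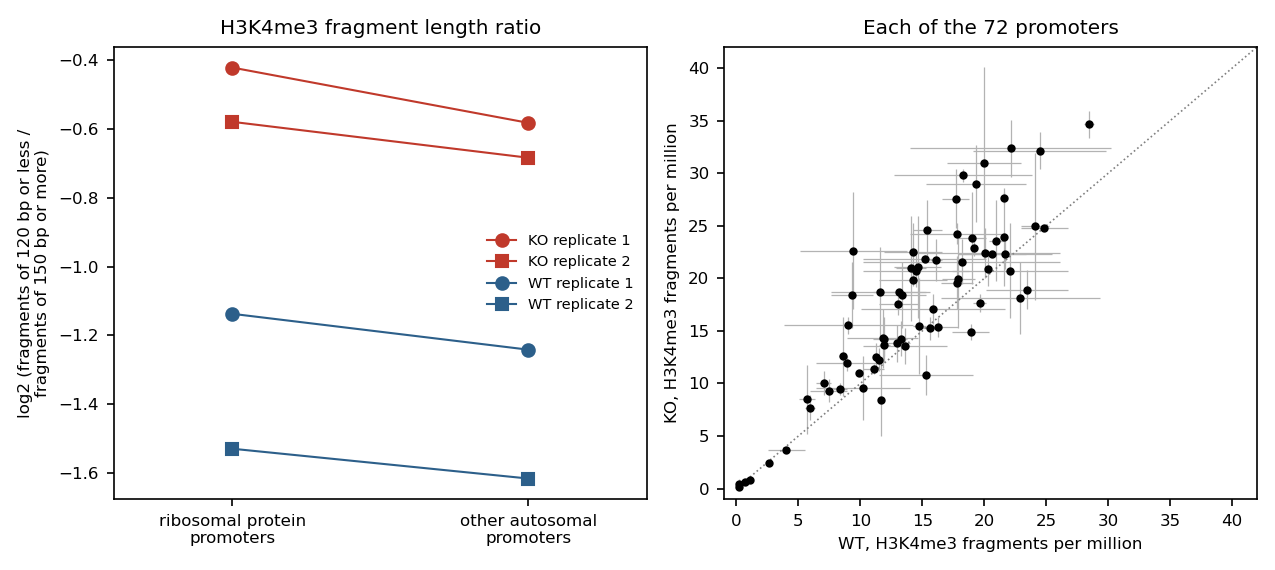
Left, log2 ratio of small to large H3K4me3 fragments at ribosomal protein and at other autosomal promoters, a line per library. Right, mean H3K4me3 FPM of the 2 KO against the 2 WT libraries for each of the 72 promoters, with bars from the lower to the higher library and a dotted line of equality. KO lines lie above WT lines by 0.83 (members) and 0.80 (others), and the fitted change between KO and WT was positive at 52 of the 68 members tested. With median-ratio scaling it was positive at 36, and the share over all promoters is not given.

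With the other antibodies the members gave few fragments. In H3K27me3 libraries their log2 ratio was -1.51 and -0.96 in KO and -2.38 and -1.30 in WT, a difference of 0.60, with an SD of 0.60. In H3K9me3 libraries it was -1.63 and -1.10 in KO and -1.28 and -1.0 in WT, a difference of -0.22 with an SD of 0.30. In IgG libraries it was 0.63 and -1.0 in KO and -0.51 and -1.58 in WT, a difference of 0.86 with an SD of 0.97. Over all members, the unpaired SD was larger than each difference, or about equal to it for H3K27me3. With Rps29 included and at GENCODE starts, both sibling pairs had the same sign in each antibody: pair 1 gave 1.14 and pair 2 gave 0.58 with IgG, against 0.87 and 0.34 with H3K27me3 and -0.35 and -0.10 with H3K9me3. At RefSeq starts the pairs gave 0.17 and -0.10 for H3K9me3 and 0.64 and -0.02 for IgG. Without Rps29 the H3K27me3 pairs no longer shared a sign, at 0.93 and -0.29 (mean 0.32), nor did those of H3K9me3, at -0.42 and 0.067. The IgG difference was then 1.73, with ratios of 0.87 and 0 in KO and -0.58 and -2 in WT. These rested on 18 and 9 fragments in KO and 10 and 5 in WT. At the other promoters the IgG ratio was also higher in KO, by 0.32 with an SD of 0.12.

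Small and large fragments lay at different places. Within 100 bp of the GENCODE start, 10% of the window by length, lay 26.05% and 21.3% of the members' small H3K4me3 fragments in KO and 23.8% and 20.6% in WT. At the other promoters the shares were 18.3% and 16.5% in KO and 19.4% and 15.6% in WT, lower in 4 of 4 libraries. In 3 of the 4 libraries the share of other promoters lay outside the 95% Wilson interval of the members, and in WT replicate 1 it lay inside (18.8 to 29.7). Large fragments were not concentrated there, with 10.7% and 10.8% in KO and 12.8% and 10.3% in WT. KO and WT values overlapped in both classes. For small fragments KO was higher within both pairs. It was so at the RefSeq start too, with 26.3% and 22.9% in KO and 23.5% and 21.0% in WT. For large fragments the pairs differed in sign.

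Midpoints of large fragments formed maxima on both sides of the start. Around the RefSeq start, over the 4 libraries, they lay 151 bp upstream and 132 bp downstream at the members, 283 bp apart, and 172 bp upstream and 122 bp downstream at the other promoters, 294 bp apart. The downstream maximum was 1.62 times the mean of the window at the members and 1.44 times at the others. At the GENCODE start it was 1.39 and 1.42 times, so this difference in height turned with the start that was used. The members' maxima rest on 5636 midpoints. Separate maxima of KO (146 bp upstream, 135 bp downstream) and WT (165 and 114 bp) rest on 3409 and 2227 midpoints.

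**Figure D4:**
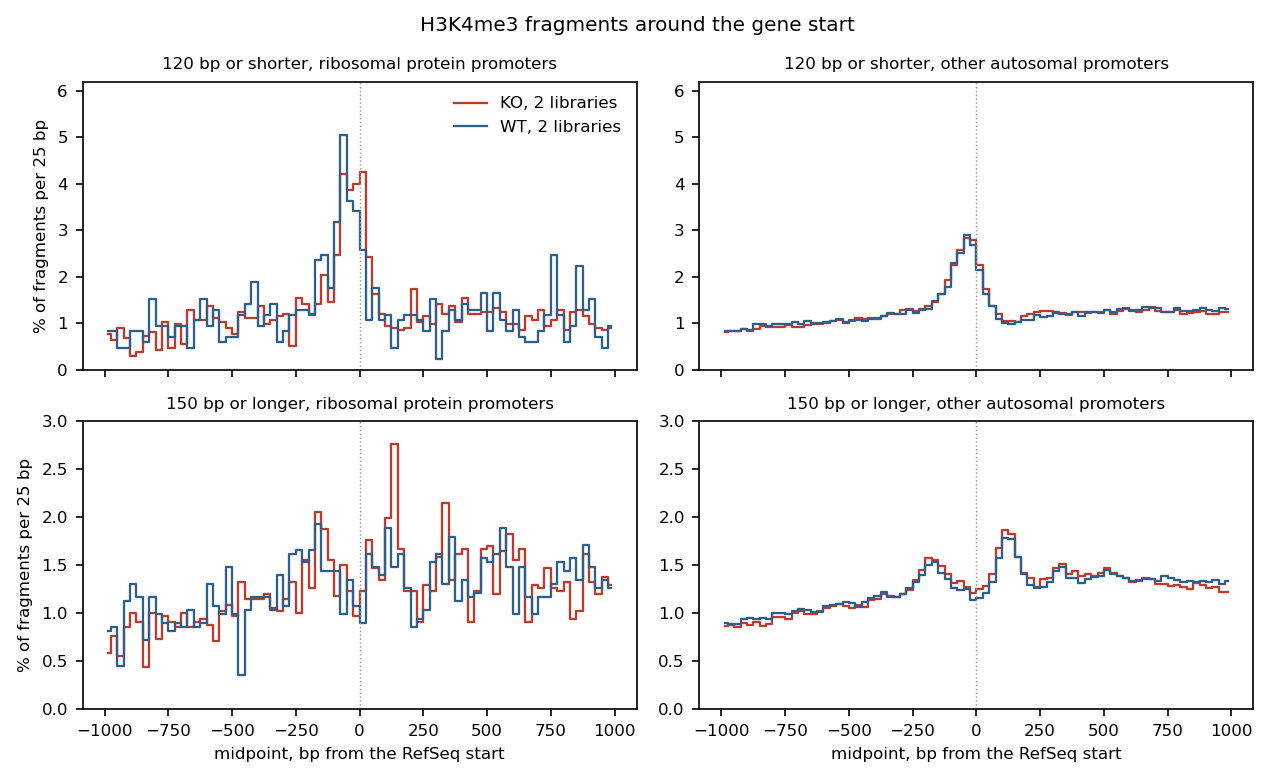
Share of H3K4me3 fragments per 25 bp by the distance of their midpoint from the RefSeq start, for small (top) and large (bottom) fragments, at ribosomal protein (left) and other autosomal promoters (right). Red and blue lines add up the 2 KO and the 2 WT libraries. Small fragments peak at and just upstream of the start, and large ones on both sides of it, at 151 bp upstream and 132 bp downstream for the members.

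Fragments were about evenly split between the 2 sides of the start. The log2 ratio of downstream to upstream H3K4me3 fragments at the members was 0.30 and 0.31 in KO and -0.08 and 0.28 in WT, a difference of 0.21 with an SD between replicates of 0.18. It rested on pair 1 (0.38), since pair 2 gave 0.03. These ratios are taken around the GENCODE start. Among members with at least 100 fragments, Rpl28 (1.95), Rpl15 (1.33), and Rps9 (1.25) had the largest downstream excess. The RefSeq start of Rpl15 lies 405 bp downstream of its GENCODE start, and Nkiras1 starts within 1 kb of the latter. The part of either in its excess was not tested. Rps21 (-0.82) and Rpl36 (-0.69) were among those with an upstream excess. Rpl28, with 23 fragments upstream and 90 downstream, thus had the largest downstream excess of these members and also the lowest ratio of small to large fragments.

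Within the members, H3K4me3 at the RefSeq start was higher where the 300-base promoter held more CpG. Pearson's r across the 53 genes was 0.43 (Spearman's rho 0.37), and 0.34 without Rpl3l, which has the fewest marks and 2 CpG. The length of the pyrimidine run showed little relation (r = 0.14, rho = 0.04). Genes are not independent replicates, and these values describe the same 4 libraries.

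Other genes of protein synthesis and turnover were read from lists for comparison. The 12 further ribosome genes outside the naming rule, among them Fau, whose product is fused to a ubiquitin-like sequence, had a median H3K4me3 of 13.7 FPM. Fau was at 27.4, near the level of Rps2, and Rps3a1 at 4.01. The median was 11.9 for 78 mitochondrial ribosomal protein genes, 15.6 for 38 proteasome subunit genes, 14.1 for 13 translation factors, and 16.4 for 14 ribosome biogenesis genes. Between KO and WT 0 genes of any of these lists were called for H3K4me3 (limma-voom). The members' median of 16.3 thus lies near those of the proteasome and biogenesis genes.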

How the data were processed

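The authors sorted haploid spermatids, performed AutoCUT&RUN, sequenced 25-base paired ends, and aligned them to mm10 with Bowtie2 (2.3.4.3 per the submitters' processing notes). Each deposited file gives the position and size in bp of the mapped fragments of 1 library, without scaling or pooling. The methods name duplicate removal, but 33.6% to 83.4% of the deposited fragments repeat earlier coordinates, and each distinct one was counted once. Since no molecular identifiers were used, intervals cover counting error only.

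Members and lists were chosen with earlier results of these data known. Rps4l, which the rule for named genes lists, has no match in vM21. Gene starts were those of GENCODE vM21, and curated RefSeq starts were an alternative added after seeing the data. Promoters with at least 10 fragments over the libraries compared were tested with limma-voom on the whole table, scaled to distinct fragments, with Benjamini-Hochberg adjustment. Log2 ratios of small to large fragments (pseudocount 0.5, at least 10 of each) were tested with limma after centring. KO against WT had 2 libraries each.

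Genes named are the 6 highest and 6 lowest by H3K4me3, the paralogs, members called, the 4 largest changes in each direction shared by both pairs, the 4 highest by H3K27me3, H3K9me3, and IgG, and the extremes of length ratio and position. Rpl41, Rps15a, Rpl31, and Rpl10l, in the length ratio between genotypes, were named after their values were seen. Single values of some genes are not reported here.

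Each test was tried on simulated data with known changes. With added variation between libraries the tests of KO against WT missed many changed promoters, and the length ratio test missed most of them also with counting noise alone. H3K9me3 against IgG called many unchanged promoters and was left out. The methods name 2 sibling pairs, and the labels' replicate numbers were read as these pairs. The labels of the 2 replicates also carry different codes, so the pair cannot be told apart from whatever else these codes mark. Deviations from the genotype means correlated within pairs by 0.23 for H3K4me3, 0.30 for H3K27me3, 0.17 for H3K9me3, and 0.39 for IgG. Analyses used Python 3.11.15, NumPy 2.4.6, pandas 2.3.3, SciPy 1.17.1, matplotlib 3.10.9, R 4.3.3, and limma 3.58.1.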

Additional observations from a re-analysis of the deposited data

Results flagged for a closer look

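The 4 ribosomal protein genes of the X chromosome (Rpl10, Rpl36a, Rpl39, and Rps4x) lie outside the autosomal set and the comparisons above, and their promoters carried H3K4me3 above the IgG control. The mean over the 4 H3K4me3 libraries was 5.67 fragments per 1000000 distinct fragments (FPM) and promoter. The values were 6.86 and 4.64 in KO and 6.37 and 4.81 in WT, on 20 to 63 fragments. IgG gave 0 fragments in 3 libraries and 1 in the fourth. The 944 other protein-coding promoters of the X chromosome had means of 5.62 and 4.57 in KO and 5.70 and 4.62 in WT, and the autosomal members had 14.02 to 18.7. A haploid cell holds an X or a Y chromosome, so X and autosomal levels of a library are not directly comparable. H3K9me3 at the 4 genes was 1.45 and 1.77 in KO and 1.34 and 1.75 in WT, close to the other X promoters at 1.60 and 1.83 in KO and 1.35 and 1.83 in WT, and the autosomal members had 0.0947 to 0.207. Rpl10 had the most H3K4me3 (mean 10.8), and Rpl39 the most H3K9me3 (mean 2.44).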

How the results depend on the processing

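Most values kept their direction and their side of the threshold under other windows, filters, scalings, and starts, with these exceptions, whose cause was not tested. The count of members with H3K4me3 above IgG was 65, 30 with median-ratio scaling, and 44 with every deposited fragment counted (52 to 65 without 1 replicate). Members with H3K27me3 above IgG numbered 1, and 2 with a window of 2 kb or median-ratio scaling, 3 with limma-trend, and 0 with no filter beyond 1 fragment (0 to 1 without 1 replicate). For H3K27me3 between KO and WT the count of 0 became 1 (Rps29) with the replicate block and 0 to 1 without 1 replicate (1 without WT replicate 1, where the WT arm is the 1 shallow library and is assumed to vary like the others), and the sibling pairing changed no other call of a member between KO and WT. It took the count above H3K27me3 from 67 to 65. The pooled H3K4me3 level was higher in KO by 0.13 to 0.41 without 1 replicate. The pooled IgG level, lower in KO by -0.31, was at 0.22 with every deposited fragment, at 0.32 without Rps29 (0.32 also without Rps29 and Rpl3), and between -0.65 and 0.032 without 1 replicate. The pooled H3K9me3 length ratio went from -0.22 to -0.69 with a window of 500 bp. Leaving out 1 replicate moved Rps3 between 0.20 and 1.07, Rpl30 between 0.57 and 2.02, Rpl21 between 0.43 and 0.93, Rps9 between -0.47 and -0.20, Rps29 between -0.51 and -0.12, and Rpl39l between -0.25 and -0.09, and the pooled length ratio of H3K27me3 between 0.34 and 0.87, of H3K9me3 between -0.35 and -0.10, and of IgG between 0.58 and 1.14. The changes of 3 single genes turned sign: Rpl35 to 0.057 without KO replicate 2 and to 0.0087 without WT replicate 1 (-0.73 to 0.057 over replicates left out), Rpl39l to 0.024 with 500 bp, and Rps9 to 0.026 with 2 kb. Length classes of at most 100 bp and 140 to 200 bp left no ratio for H3K27me3 and IgG, where a library had no such fragment. The depth limits H3K27me3, H3K9me3, and IgG, with medians of 0 or 1 fragment per member and library.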
